A study of Mus musculus with 11 samples.

Results

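A set of 9 genes of the p53 and intrinsic apoptosis pathway were followed in RNA-seq of mouse testes with and without *Ccer1*. The set is *Trp53*, *Mdm2*, *Cdkn1a*, *Bax*, *Bak1*, *Bbc3*, *Bcl2*, *Bcl2l1* and *Casp9*, taken as the features of each count table whose Ensembl identifier maps to one of these symbols. All 9 were found among the 22259 genes of each library, and all 9 passed the filter on low counts that left 15139 genes for testing. The study made mice that lack CCER1, a coiled-coil glutamate-rich nuclear protein of spermatids, and sequenced 3 *Ccer1*+/+ and 3 *Ccer1*-/- testes, all from untreated adult mice on the C57BL/6J background. The *Ccer1*-/- mice carry a CRISPR–Cas9 frameshift deletion in the coding sequence, one of the edited lines was chosen for the study of pathology, and the line that gave the RNA is not named separately. The tissue was whole testis, so each value averages germ cells and somatic cells. Hi-C samples of sperm in the same series were not analysed here.

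p53, encoded by *Trp53*, is a transcription factor that MDM2 holds at a low protein level by ubiquitination, and stress such as DNA breaks relieves that hold. Stabilized p53 can arrest the cell cycle through p21, encoded by *Cdkn1a*, or start the intrinsic death pathway by inducing *Bbc3* and *Bax*. In that pathway BH3-only proteins neutralize BCL2 and BCL-XL, BAX and BAK open the outer mitochondrial membrane, and released cytochrome c activates caspase-9 on APAF1. In the mouse testis, loss of *Bax* disrupts spermatogenesis and leads to an excess of early germ cells. Because p53 is controlled largely at the protein level, the transcript levels below do not measure its activity.

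Promoter sequence is shown for the genes induced by p53, since p53 binds pairs of a 10-base element known as the p53 half-site. RefSeq promoter windows on GRCm38.p6, 250 bases before to 50 bases after each start, were matched for all 9 genes, which have 14 windows among them. An exact match to the half-site consensus, which reads the same on both strands, occurred in 4 of the 14 windows, one each of *Cdkn1a*, *Bax*, *Mdm2* and *Trp53*, and in 8.36% of all 32851 windows. For pairs, only stretches that hold the fixed C and G of the consensus were scored, so half-sites with a mismatch there were not considered. A pair scored in this way, with a spacer of 0 to 13 bases and at most 3 mismatches, occurred in 6 of the 14 windows. It occurred in 15.6% of all windows. A best pair for each of 3 induced genes is printed 5′ to 3′ on the gene's strand. Half-sites are in capitals and the spacer is in lower case.
*Cdkn1a*, chr17:29090906-29090937, plus strand: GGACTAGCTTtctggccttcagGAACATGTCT
*Bax*, chr7:45467090-45467114, minus strand: TGACAAGCATatcccAGGCAAGCTT
*Bbc3*, chr7:16309486-16309505, plus strand: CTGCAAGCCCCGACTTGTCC
The *Cdkn1a* pair has 0 mismatches and begins 73 bases before the upstream of the gene's annotated starts. In the other *Cdkn1a* window, chr17:29093519-29093818, the best pair has 5 mismatches. The *Bax* pair has 2 mismatches and begins 216 bases before the start. The *Bbc3* pair has 3 mismatches, no spacer and begins 97 bases before the start in its window. Another *Bbc3* window holds a pair that also has 3 mismatches, at chr7:16310156-16310177, which is not printed. A pair with 3 mismatches was also the best in the *Trp53* window and in 1 *Bcl2l1* window, chr2:152831679-152831978, and neither is printed. Such pairs were therefore not confined to the genes that p53 induces. *Mdm2*, which p53 also induces, has no pair scored in this way within 3 mismatches in its window. A match in letters describes the window and does not show binding.

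The libraries held 16259579 to 19621550 counts in *Ccer1*+/+ and 15970289 to 16552947 in *Ccer1*-/-. *Ccer1* itself was at 439, 610 and 529 CPM (counts per 1000000 counts of the tested genes, after TMM scaling) in *Ccer1*+/+ replicates 1, 2 and 3 and at 82.1, 93.0 and 88.3 CPM in *Ccer1*-/- replicates 1, 2 and 3, a log2 fold change of -2.58 ± 0.15 (SE, edgeR adjusted p = 7.35e-04). The genotype labels therefore held for the targeted gene. *Ccer1*+/+ replicate 1 stood apart from its group: its log2 CPM correlated at a mean r of 0.985 with the 3 *Ccer1*-/- libraries, and at 0.963 with *Ccer1*+/+ replicates 2 and 3. Summed germ cell and somatic marker levels overlapped between genotypes in each of the 10 testis and blood lists. In spermatocytes the overlap rested on *Ccer1*+/+ replicate 1, with sums of 1989, 2563 and 2570 CPM against 1905, 1937 and 2003 CPM. Of these 7 markers, 5 had positive and 2 negative log2 fold changes. Single markers lower in every *Ccer1*-/- library were *Piwil1*, *Catsper4* and *Acr*, beside 3.14% of all genes. Those higher were *Akap4* and *Smcp*, beside 5.21%. Of the 7 elongating spermatid markers, which include both, 3 had positive and 4 negative log2 fold changes. The 7 round spermatid markers, which include *Catsper4* and *Acr*, were also split 3 positive and 4 negative. Of 5 epididymal markers, 4 were at 0 in every library. The tubule wall and macrophage sums were lowest in replicate 3 of both genotypes. Fewer cells of a type and less RNA per cell cannot be told apart in whole testis.

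None of the 9 genes passed the test between genotypes. At an adjusted p under 0.05 in edgeR's quasi-likelihood test, 0 of 9 were called, against 0.00661% of all genes tested, which is *Ccer1* alone. *Bbc3*, encoding the BH3-only protein PUMA, was the 1 gene of 9 at an unadjusted p under 0.05, against 2.89% of all genes, and it remained so with a fold above 1.5, against 1.18%. *Bbc3* was also the 1 gene of 9 that was higher in every *Ccer1*-/- library than in any *Ccer1*+/+ library, against 5.21% of all genes. None of the 9 was lower in every *Ccer1*-/- library, against 3.14% of all genes. DESeq2 called 0 of 9 at either threshold. Of the log2 fold changes, 5 were positive and 4 negative, with a median of 0.10 beside 0.039 over all genes tested.

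**Figure D1:**
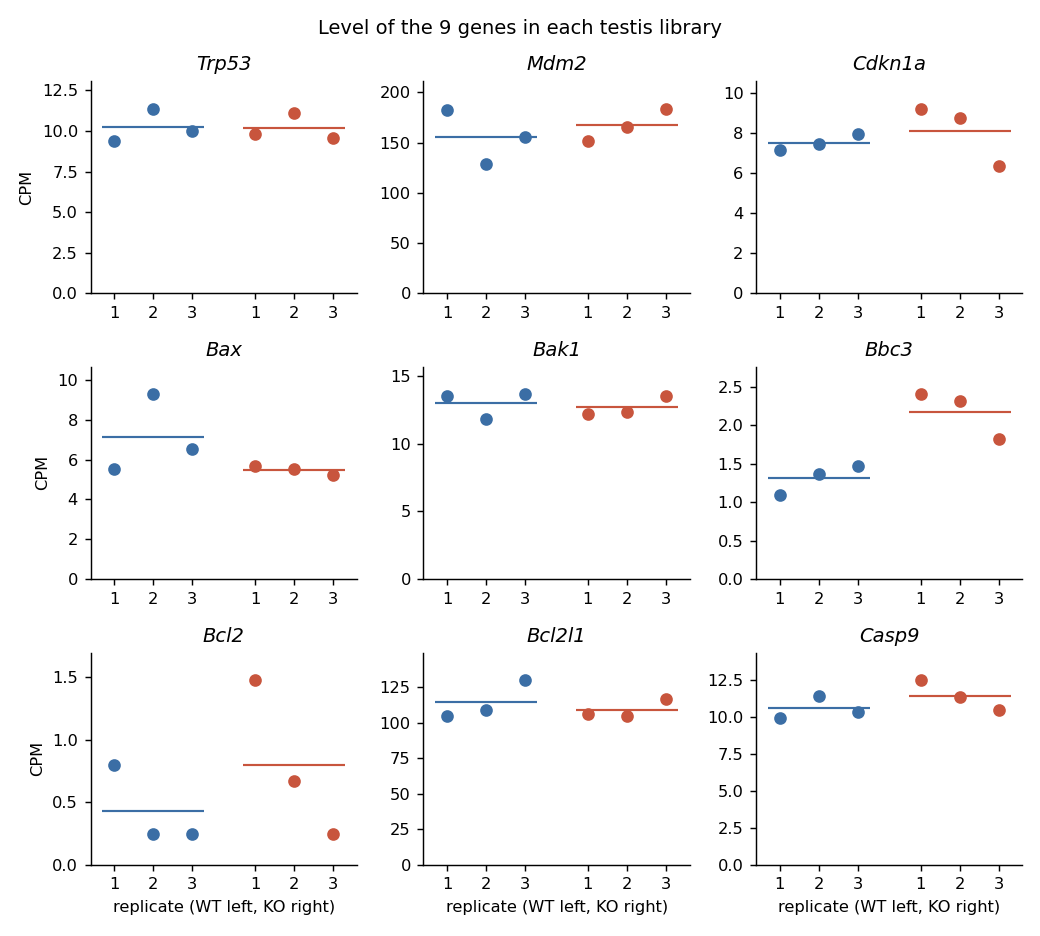
Each panel plots one gene in CPM (linear axis from 0), with points for the 3 *Ccer1*+/+ (WT, blue) and 3 *Ccer1*-/- (KO, red) libraries and lines for the group means. *Bbc3* is the only panel in which the groups do not overlap, with all *Ccer1*-/- points from 1.82 to 2.40 CPM above the highest *Ccer1*+/+ point of 1.47 CPM.

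*Trp53* (chr11:69580348-69591873) was at 9.38, 11.4 and 9.98 CPM in *Ccer1*+/+ replicates 1, 2 and 3 and at 9.84, 11.1 and 9.59 CPM in *Ccer1*-/- replicates 1, 2 and 3. Replicate 2 was the highest library of each genotype, and the groups overlapped almost completely. The log2 fold change of *Ccer1*-/- over *Ccer1*+/+ was -0.0081 ± 0.18 (SE, edgeR adjusted p = 0.993). Its 95% interval, -0.41 to 0.39, leaves room for a difference of up to about 1.31-fold upward or 0.754-fold downward. It was 0.024 without *Ccer1*+/+ replicate 2. The transcript that encodes p53 was measured at close to equal means, 10.2 ± 1.02 CPM and 10.2 ± 0.815 CPM (SD, n = 3 each).

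*Mdm2* (chr10:117688875-117710758), the E3 ligase that p53 induces and that in turn degrades p53, was at 183, 129 and 156 CPM in *Ccer1*+/+ replicates 1, 2 and 3 and at 152, 166 and 184 CPM in *Ccer1*-/- replicates 1, 2 and 3. The lowest library was *Ccer1*+/+ replicate 2, while *Ccer1*+/+ replicate 1 lay beside the highest *Ccer1*-/- library. *Mdm2* had a log2 fold change of 0.10 ± 0.15 (SE, edgeR adjusted p = 0.852), with an interval of -0.25 to 0.45. Its direction turned without *Ccer1*+/+ replicate 2 (-0.064), without *Ccer1*-/- replicate 3 (-0.031) and once the trend with GC content and transcript length was removed as a curve (-0.050).

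*Cdkn1a* (chr17:29090979-29100722) encodes p21, which inhibits cyclin-dependent kinases, and 1 of its promoter windows holds the pair of exact half-sites shown above. It was at 7.13, 7.48 and 7.96 CPM in *Ccer1*+/+ replicates 1, 2 and 3. The *Ccer1*-/- replicates 1, 2 and 3 were at 9.22, 8.74 and 6.38 CPM. *Ccer1*-/- replicates 1 and 2 lay above every *Ccer1*+/+ library and *Ccer1*-/- replicate 3 lay below every one of them. The log2 fold change was 0.11 ± 0.21 (SE, edgeR adjusted p = 0.888), with an interval of -0.36 to 0.58, and the *Ccer1*-/- libraries varied more (SD 1.52 CPM) than the *Ccer1*+/+ libraries (SD 0.414 CPM, n = 3 each). It was -0.047 without *Ccer1*-/- replicate 1 and -0.012 without *Ccer1*-/- replicate 2.

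*Bbc3* (chr7:16308398-16318334) was at 1.10, 1.36 and 1.47 CPM in *Ccer1*+/+ replicates 1, 2 and 3 and at 2.40, 2.31 and 1.82 CPM in *Ccer1*-/- replicates 1, 2 and 3. Every *Ccer1*-/- library lay above every *Ccer1*+/+ library, and the closest pair was *Ccer1*-/- replicate 3 and *Ccer1*+/+ replicate 3. This gave a log2 fold change of 0.73 ± 0.29 (SE, edgeR adjusted p = 0.786), a 1.66-fold ratio with an interval of 1.05 to 2.65. The two-sided exact permutation test over the 6 libraries gave 0.1, the smallest p that 3 against 3 allows. Groups that do not overlap always give this value, so it adds nothing to the separation. In the same test the other genes gave p from 0.2 (*Bax*) to 0.9 (*Trp53*). These levels rest on few counts, namely 22, 22 and 24 in *Ccer1*+/+ and 39, 38 and 30 in *Ccer1*-/- replicates 1, 2 and 3. The exact Poisson 95% interval for 22 counts is 13.8 to 33.3 and that for 30 counts is 20.2 to 42.8, so the intervals of single libraries overlap. Such intervals cover counting error only. The unadjusted call was lost when *Ccer1*+/+ replicate 1, 2 or 3 or *Ccer1*-/- replicate 1 or 2 was left out, and with DESeq2, while the direction held in all 13 alternatives with log2 fold changes of 0.55 to 0.89.

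*Bax* (chr7:45461695-45466903), which forms pores in the outer mitochondrial membrane, was at 5.54, 9.27 and 6.55 CPM in *Ccer1*+/+ replicates 1, 2 and 3 and at 5.66, 5.52 and 5.22 CPM in *Ccer1*-/- replicates 1, 2 and 3. *Ccer1*+/+ replicates 2 and 3 lay above every *Ccer1*-/- library, and *Ccer1*+/+ replicate 1 lay inside the *Ccer1*-/- range. The log2 fold change was -0.38 ± 0.24 (SE, edgeR adjusted p = 0.786), with an interval of -0.92 to 0.16. Without *Ccer1*+/+ replicate 1 it was -0.60 (edgeR adjusted p = 0.0745), where *Bax* in place of *Bbc3* was the 1 gene of the 9 at an unadjusted p under 0.05, and with the length and GC curve removed it was -0.20. The part of that library and of GC content in the *Bax* value was not tested beyond these fits. *Bax* and *Bbc3*, both induced by p53 and both rich in GC, at 62.6% and 65.2% of the transcript, had fitted log2 fold changes of opposite sign, neither past the adjusted test. With the length and GC curve removed, they were at -0.20 and 0.89. The part of p53 activity or GC content in either value was not tested.

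*Bak1* (chr17:27019812-27028627), which acts in parallel with *Bax* at the mitochondrion, was at 13.6, 11.9 and 13.7 CPM in *Ccer1*+/+ replicates 1, 2 and 3 and at 12.2, 12.4 and 13.5 CPM in *Ccer1*-/- replicates 1, 2 and 3. All 3 *Ccer1*-/- libraries lay inside the *Ccer1*+/+ range. *Bak1* had a log2 fold change of -0.035 ± 0.16 (SE, edgeR adjusted p = 0.957), with an interval of -0.40 to 0.33. The RefSeq span of *Bak1* lies wholly within that of *Ggnbp1*, which held 11869 to 16233 counts a library beside 192 to 272 for *Bak1*. No source used here gives the strand setting of the counting, so a share of *Ggnbp1* reads in the *Bak1* value cannot be told apart.

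*Bcl2* (chr1:106538176-106714290), the founding anti-apoptotic member of its family, was at 0.798, 0.247 and 0.245 CPM in *Ccer1*+/+ replicates 1, 2 and 3 and at 1.48, 0.668 and 0.243 CPM in *Ccer1*-/- replicates 1, 2 and 3. Replicate 1 was the highest library of each genotype, and the groups overlapped. The counts were 16, 4 and 4 against 24, 11 and 4, and 4 counts have an exact Poisson 95% interval of 1.09 to 10.2. Its fitted log2 fold change was 0.83 ± 0.72 (SE, edgeR adjusted p = 0.787), with an interval of -0.80 to 2.46. It was -0.0019 without *Ccer1*-/- replicate 1 and 1.59 without *Ccer1*+/+ replicate 1. The exact Poisson interval for the 24 counts of *Ccer1*-/- replicate 1, 15.4 to 35.7, does not meet that for 4 counts in *Ccer1*-/- replicate 3, so these libraries of one genotype differed beyond counting error.

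*Bcl2l1* (chr2:152758732-152833803), whose BCL-XL product blocks BAX and BAK, was at 105, 109 and 130 CPM in *Ccer1*+/+ replicates 1, 2 and 3 and at 106, 104 and 117 CPM in *Ccer1*-/- replicates 1, 2 and 3. Replicate 3 was the highest library of each genotype, and the groups overlapped. *Bcl2l1* had a log2 fold change of -0.069 ± 0.13 (SE, edgeR adjusted p = 0.888), with an interval of -0.37 to 0.23, the narrowest of the 9. Its 3′ part overlaps *Cox4i2*, which held at most 3 counts in any library.

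*Casp9* (chr4:141793612-141815978), the initiator caspase of the apoptosome, was at 9.93, 11.4 and 10.3 CPM in *Ccer1*+/+ replicates 1, 2 and 3 and at 12.5, 11.4 and 10.4 CPM in *Ccer1*-/- replicates 1, 2 and 3. *Ccer1*-/- replicate 1 was the highest library, and the other values of the groups interleaved. For *Casp9* the log2 fold change was 0.11 ± 0.17 (SE, edgeR adjusted p = 0.854), with an interval of -0.28 to 0.50. It was -0.0017 without *Ccer1*+/+ replicate 1 and -0.0090 without *Ccer1*-/- replicate 1. The end of *Casp9* overlaps *Cela2a*, at 5 to 26 counts a library.

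**Figure D2:**
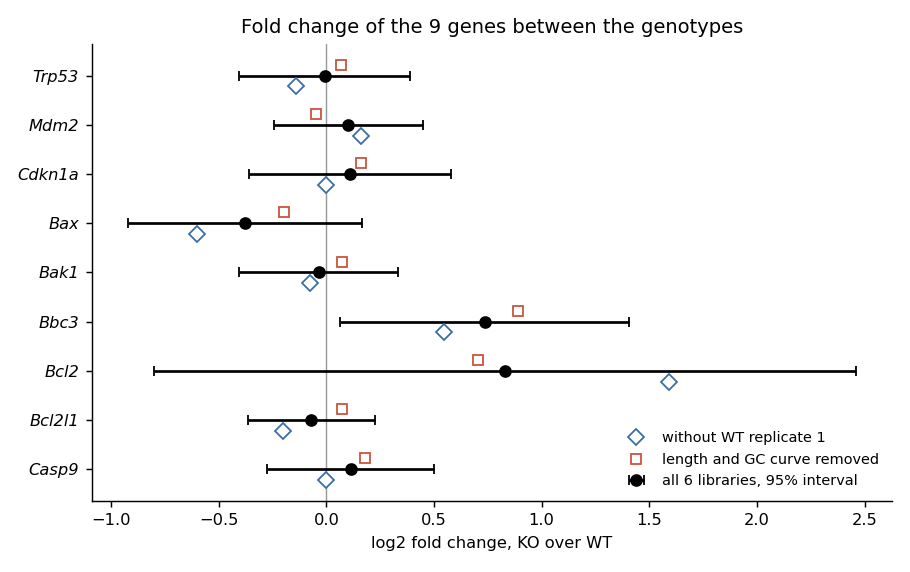
Log2 fold change of *Ccer1*-/- (KO) over *Ccer1*+/+ (WT) for the 9 genes, with filled circles and 95% interval bars from all 6 libraries, open diamonds without *Ccer1*+/+ replicate 1 and open squares with the length and GC curve removed. The interval of *Bbc3*, 0.065 to 1.40, is the only one of the 9 that leaves out 0, before any adjustment for the number of genes tested.

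The balance of pore-forming and protective transcripts was compared within libraries as log2 ratios of CPM. These ratios were not divided by exonic length, so they compare libraries and not amounts of transcript. Per kilobase, the mean of *Bax* over *Bcl2l1* was -2.21 in *Ccer1*+/+ and -2.49 in *Ccer1*-/-. That of *Bax* over *Bcl2* was 6.68 and 5.56. *Bax* over *Bcl2l1* was -4.24, -3.55 and -4.31 in *Ccer1*+/+ and -4.23, -4.24 and -4.48 in *Ccer1*-/- replicates 1, 2 and 3, so that *Ccer1*+/+ replicate 2 alone was apart. *Bak1* over *Bcl2l1* was -2.95, -3.19 and -3.25 against -3.11, -3.07 and -3.11, with every *Ccer1*-/- library inside the *Ccer1*+/+ range. *Bax* over *Bcl2* was 2.79, 5.23 and 4.74 against 1.94, 3.05 and 4.43, a ratio that overlapped between groups and rests on the few *Bcl2* counts given above.

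The 9 genes spanned a wide range of levels when CPM were divided by exonic length in kilobases. *Mdm2* was highest, at means of 30.7 CPM per kilobase in *Ccer1*+/+ and 33.0 in *Ccer1*-/-, and its range over the 6 libraries overlapped that of *Bcl2l1*, at 24.2 and 23.0. *Bak1* (5.41 and 5.28), *Bax* (5.32 and 4.08) and *Cdkn1a* (3.39 and 3.65) followed, and the ranges of neighbours in this order overlapped. *Trp53* (2.53 and 2.52) and *Casp9* (1.91 to 2.40 over the 6 libraries) overlapped each other and lay below the lowest *Cdkn1a* library. *Bbc3* was at 0.652 and 1.08 CPM per kilobase, and *Bcl2* was lowest at 0.0598 and 0.111. The regulator *Mdm2* was 12.1-fold above *Trp53* per kilobase in *Ccer1*+/+ and 13.1-fold above it in *Ccer1*-/-. Of the protective genes, *Bcl2l1* was 404-fold above *Bcl2* in *Ccer1*+/+ and 208-fold above it in *Ccer1*-/-. These folds rest on single libraries of *Bcl2*, and were 736-fold without *Ccer1*+/+ replicate 1 and 369-fold without *Ccer1*-/- replicate 1.

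**Figure D3:**
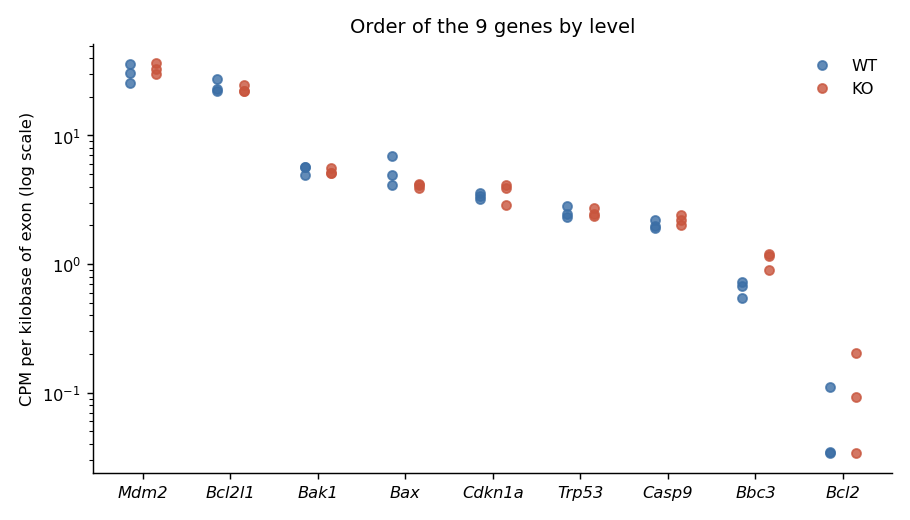
Level of the 9 genes in CPM per kilobase of exon on a log axis, with one point for each of the 3 *Ccer1*+/+ (WT, blue) and 3 *Ccer1*-/- (KO, red) libraries and the genes in order of their mean. *Mdm2* sits at 25.4 to 36.3 CPM per kilobase and *Bcl2* at 0.0338 to 0.205.

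The values of the 9 genes were also set beside the likeness of *Ccer1*+/+ replicate 1 to the *Ccer1*-/- libraries. On log2 CPM, that replicate was nearer to the *Ccer1*-/- mean than to the mean of the other *Ccer1*+/+ libraries for 5 of the 9 (*Trp53*, *Mdm2*, *Bax*, *Bcl2* and *Bcl2l1*), 55.6%, against 79.7% of all genes tested. *Bbc3* was not among them, since *Ccer1*+/+ replicate 1 was its lowest library, 0.36 below the mean of the other *Ccer1*+/+ libraries and 0.96 below the *Ccer1*-/- mean. *Bax* was among them, at 0.49 below the other *Ccer1*+/+ libraries, where the *Ccer1*-/- mean was 0.51 below them. *Mdm2*, with the lowest GC content of the 9 at 46.2%, was 0.36 above the other *Ccer1*+/+ libraries in that replicate.

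The wider pathway was taken from 8 lists with 90 distinct symbols, of which 88 were matched and 81 tested. None of the 81 changed at an adjusted p under 0.05, and 0 were at an unadjusted p under 0.05 in edgeR, against 0.00661% and 2.89% of all genes. The log2 fold changes were positive for 53 and negative for 28 (65.4% positive), with a median of 0.15, beside 55.4% positive and a median of 0.039 over all genes tested. *Bid*, the BH3-only protein cleaved by caspase-8, was the 1 gene of the 81 that was higher in every *Ccer1*-/- library, at 4.29, 3.77 and 4.16 CPM against 4.67, 4.92 and 4.86 CPM, where 5.21% of all genes were so placed. *Ep300*, an acetyltransferase and coactivator of p53, was the 1 that was lower in every *Ccer1*-/- library, at 64.1, 60.0 and 64.6 CPM against 59.6, 58.3 and 46.1 CPM, beside 3.14% of all genes. Their log2 fold changes were 0.24 ± 0.21 and -0.20 ± 0.14 (SE).

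Regulators of p53 had a median log2 fold change of 0.059 over 16 genes tested, with *Atr*, a kinase of the DNA damage response, at 0.28 ± 0.18 and the deacetylase gene *Sirt1* at 0.42 ± 0.29 (SE). Other p53 targets had a median of 0.15 over 21, with *Ei24* at 0.36 ± 0.20 and *Ccng1* at 0.57 ± 0.34 (SE). In CPM, *Ccng1*, the cyclin G1 gene, was at 9.53, 4.02 and 3.98 CPM in *Ccer1*+/+ and 9.22, 8.26 and 8.68 CPM in *Ccer1*-/- replicates 1, 2 and 3. *Ccng1* thus had *Ccer1*+/+ replicate 1 as its highest library, above all *Ccer1*-/- libraries. *Sirt1* was placed in the same way, at 27.0, 11.4 and 14.8 CPM against 24.0, 22.2 and 25.2 CPM. *Ei24* had that replicate inside the *Ccer1*-/- range, while *Bik*, named below, had it as its lowest library. BH3-only genes had a median of 0.27 over 8, with *Pmaip1*, encoding NOXA, at 0.53 ± 0.37 and *Bik* at 0.42 ± 0.32 (SE). In the remaining BCL2 family the median was 0.036 over 6, with *Mcl1* at 0.18 ± 0.16, *Bcl2l13* at 0.070 ± 0.12 and *Bcl2l2*, a survival gene needed for spermatogenesis in the mouse, at 0.011 ± 0.25 (SE).

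Downstream of the mitochondrion, the apoptosome and release genes had a median log2 fold change of 0.16 over 11, with the channel genes *Vdac3* and *Vdac1* at 0.33 ± 0.18 and 0.28 ± 0.19 and the testis cytochrome c gene *Cyct* at 0.19 ± 0.21 (SE). The inhibitor of apoptosis genes had a median of 0.22 over 5, with *Birc2* at 0.25 ± 0.17 and *Xiap* at 0.51 ± 0.43 (SE). The other caspase and death substrate genes had a median of 0.11 over 9, with *Casp8*, the initiator caspase of the extrinsic pathway, at 0.45 ± 0.30 (SE). The extrinsic pathway genes had a median of 0.16 over 7, with the kinase gene *Ripk1* at 0.16 ± 0.17 and *Fasl*, the ligand of the Fas death receptor, at 0.58 ± 0.63 (SE). *Fasl* had 3 to 20 counts a library. None of these named genes passed the adjusted test.

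Without *Ccer1*+/+ replicate 1, 13 of the 81 pathway genes were called at an adjusted p under 0.05 in edgeR, against 21.7% of all genes tested in that setting. *Vdac3*, *Sirt1*, *Ccng1*, *Polk*, *Xiap*, *Trp53inp1*, *Chek1*, *Atm*, *Ei24* and *Cycs* were the 10 higher in *Ccer1*-/-, and *Septin4*, *Bad* and *Diablo* were the 3 lower, while of all genes called there 1414 were higher and 1923 lower. None of the 9 genes was called in that setting. GC content ran from 36.8% (*Xiap*) to 48.9% (*Ei24*) in the 10 higher and from 52.2% (*Diablo*) to 61.3% (*Bad*) in the 3 lower. Over 14460 genes, the log2 CPM of *Ccer1*+/+ replicate 1 minus the mean of replicates 2 and 3 had a Spearman correlation of -0.68 with GC content. With all libraries, 0 pathway genes were called both before and after the length and GC curve was removed. The curve was not fitted without *Ccer1*+/+ replicate 1, so that 0 does not bear on the 13 calls. The part of GC content in these 13 calls was not tested.

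**Figure D4:**
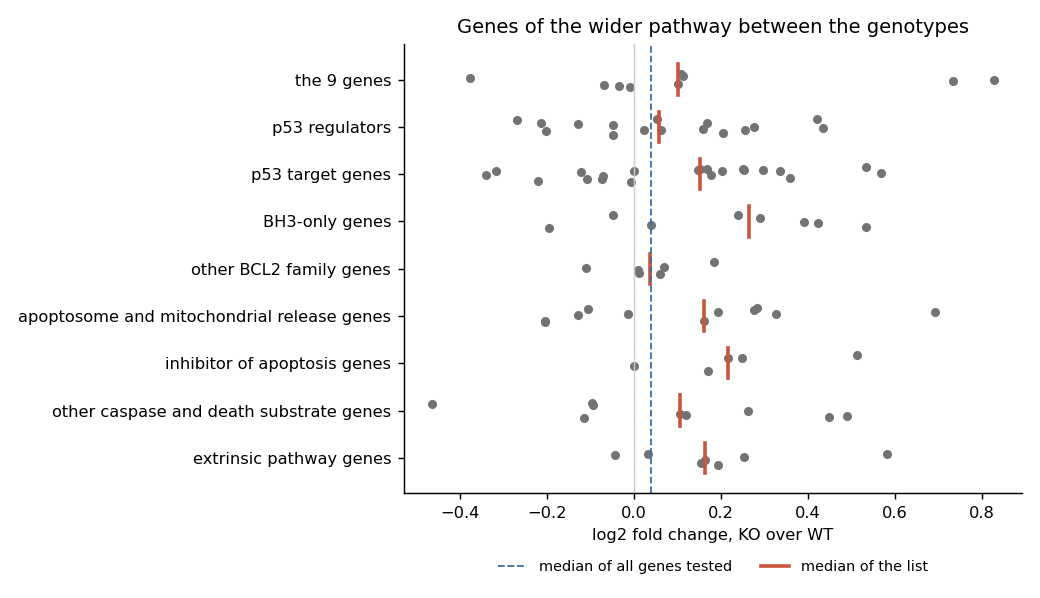
Log2 fold change of *Ccer1*-/- (KO) over *Ccer1*+/+ (WT) for each tested gene of the 9 and of the 8 pathway lists, with a red bar at each list's median and a dashed line at the median of all genes tested, 0.039. The BH3-only genes have the highest median of the 8 lists, 0.27, and their genes run from -0.20 to 0.53.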

How the data were processed

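Total RNA of 6 whole testes, 3 *Ccer1*+/+ and 3 *Ccer1*-/-, was sequenced and the labels gave each sample its genotype. Per library, a deposited table gives expected counts per Ensembl gene that the authors estimated without scaling between libraries. Tools listed in the submitters' processing notes are HISAT2, StringTie 1.3.1, Bowtie2 2.2.8 and fastp 0.18.0, with the build GRCm38 (mm10), while the counting program and its strand setting were not given in the sources used here. Reads shared with overlapping genes or near-identical copies may have been split or dropped by that step.

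Counts were rounded to whole numbers and tested in R 4.3.3 with edgeR 4.0.16 (filterByExpr with min.count 10 and min.total.count 15, TMM scaling, robust quasi-likelihood fit, two-sided F test, genotype only), with Benjamini-Hochberg adjustment over 15139 genes. CPM use TMM-scaled library sizes, log2 CPM add 0.5 counts, and each SE was derived as |log2 fold change| divided by √F. Each group's 3 libraries are described as independent samples. Values of one gene were also put to an exact permutation test (two-sided), whose smallest p for 3 against 3 is 0.1. Exonic length and GC content came from the GENCODE annotation of NCBIM37, and gene positions and promoter windows from RefSeq, GRCm38.p6. The code was tested on simulated data with the same spread for every gene and no library apart from its group. That test therefore does not cover data in which *Ccer1*+/+ replicate 1 stands apart.

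The 9 genes and all lists were chosen with earlier results of these data known. Beside the 9 genes, the text names the 2 pathway genes with the smallest p in each list (1 such gene is not reported here), those whose groups did not overlap, and genes with a known testis role. Same-numbered libraries of the 2 genotypes deviated from their group means with correlations of 0.047, 0.32 and 0.43, and the numbers were not taken as pairs. Alternatives were other scalings, DESeq2 1.42.0, other count filters, a replicate block, leaving out each library and, chosen after the data were seen, removal of a length and GC curve.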

Additional observations from a re-analysis of the deposited data

How the results depend on the processing

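None of the 9 genes passed an adjusted p under 0.05 in edgeR or DESeq2 in any of the alternatives run. *Bbc3* stayed positive (0.55 to 0.89, adjusted p 0.254 to 1.00) and *Bax* negative (-0.60 to -0.19, adjusted p from 0.0745) in all 13. With a replicate block, *Bbc3* was at 0.73 with an edgeR adjusted p = 0.589. The block called no gene of the 9. In deviations from the group means, 5 of 6 libraries correlated best with the library of their own number in the other genotype. For *Ccer1*+/+ replicate 1 that best correlation was only 0.047. The log2 fold change of *Trp53* turned to 0.027 with library totals. With the length and GC curve removed, a fit chosen after seeing the data, *Trp53* turned to 0.068, *Mdm2* to -0.050, *Bak1* to 0.071 and *Bcl2l1* to 0.072. Leaving out each library in turn gave -0.14 to 0.024 for *Trp53*, -0.064 to 0.16 for *Mdm2*, -0.047 to 0.19 for *Cdkn1a*, -0.0019 to 1.59 for *Bcl2* and -0.0090 to 0.12 for *Casp9*. *Bcl2* has no value with at least 10 counts in every library. DESeq2 called 5 of all genes, the GC curve 2 and leaving out each library in turn 1 to 3337, the most without *Ccer1*+/+ replicate 1, against 1 with all libraries. At an unadjusted p under 0.05 and a fold over 1.5, 179 genes passed, against 291 with no filter, 384 with the block, 2068 without *Ccer1*+/+ replicate 1 and 103 without *Ccer1*+/+ replicate 2. The count of the 9 genes at an unadjusted p under 0.05 was 1, against 0 with DESeq2 and 0 to 1 with a library left out, where the 1 without *Ccer1*+/+ replicate 1 was *Bax* and not *Bbc3*. The pathway genes called were 0 with all libraries and 13 without *Ccer1*+/+ replicate 1, a count added after seeing the data. The cause of these differences was not tested. *Bcl2* and *Bbc3* had under 40 counts in every library.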

Other observations

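*Atp6v1b1*, a subunit of the vacuolar proton pump, followed *Trp53* most closely across the 6 libraries among 10535 genes whose mean reached 5 CPM, with a Pearson correlation of 0.983. *Oxa1l*, which inserts proteins into the inner mitochondrial membrane, was next at 0.974, and *BC017643* at 0.969. In all, 57 of the 10535 genes were above 0.9, and whether 6 libraries give as many by chance was not tested. These correlations share the 6 libraries and their depth, and *Atp6v1b1* had, like *Trp53*, its highest value in replicate 2 of both genotypes, where it was at 16.8 and 16.7 CPM.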
